A study of Mus musculus with 8 samples.

Results

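Of 1728 long intergenic noncoding RNA (lincRNA) exons that the array probed on both strands, 766 gave a signal well above background from exactly 1 strand on all 8 arrays. These 766 loci are described here. They were chosen from probes whose names begin with MM9LINCRNAEXON, followed by an exon number and a plus or minus sign. The 2 probes of a locus share the number and differ in the sign, and Feature Extraction's flag for a spot well above background decided which of them counted as detected. A further 123 exons had both strands detected on all 8 arrays, and 839 had neither. The files give these probes no position, sequence or gene, and they do not say how the sign relates to the direction of a gene, so each probe is identified by its exon number and sign (exon 10814+ is the probe MM9LINCRNAEXON10814+_P1).

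LincRNAs are transcripts without a long open reading frame that arise between protein-coding genes. Many are capped, spliced and polyadenylated, are less abundant than messenger RNAs and are restricted to few tissues, and several are known to act in the differentiation and stress responses of the heart. Transcription at such loci can run in 1 direction or in both, as at divergent promoters and in overlapping antisense pairs, and an array can separate the directions only with a probe for each strand.

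The hearts came from 8 male mice aged 8 to 12 weeks at basal state, with 4 mice per group. Controls (KLF5 flox/flox) carried floxed alleles of Klf5, a Krüppel-like transcription factor, and no Cre recombinase. Knockout mice (aMHC-KLF5-/-) carried the floxed alleles and Cre in cardiomyocytes, with the aMHC name of the line referring to the alpha myosin heavy chain promoter of heart muscle cells. No group had Cre without floxed alleles, so an effect of Cre cannot be told apart from that of the deletion. By this design the other cells of the heart should keep Klf5, which was not checked. Whole-heart RNA was used, so fewer cells of a type and less RNA per cell cannot be told apart. None of 20 marker genes of heart cell types, and not Klf5 itself, could be matched to a probe, so neither the tissue nor the deletion was checked.

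Signals are given as log2 processed intensity minus the 75th percentile of the array, so 0 is that percentile. The lowest signal well above background, which is the detection limit of an array, lay between -2.76 and -2.24 on the control arrays, and at -3.14, -4.38, -3.70 and -2.26 on knockout arrays 1 to 4. Knockout arrays 1, 2 and 3 therefore registered dimmer spots than the control arrays did. No spot of the 766 loci was saturated. The number of arrays, 4 per group, limits the precision of every value.

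The minus strand was the detected one at 416 loci and the plus strand at 350, so 54.3% were detected on the minus strand. The flag on all 8 arrays is a strict rule for the detected strand and a loose one for the other. At 284 loci, 37.1%, the other strand was well above background on no array. It was above background on 1 to 3 arrays at 329 loci and on 4 to 7 arrays at 153. By the flag, 284 of the 766 loci were thus detected on 1 strand without exception. At the remaining 482 the other strand passed the flag on at least 1 array, and at 165 of these on a single array. The same flag was passed by 6.67%, 9.25%, 11% and 11.7% of the negative-control spots on control arrays 1 to 4, and by 11.8%, 22.4%, 15.9% and 9.58% on knockout arrays 1 to 4. The other strands passed it in 8.88%, 14.6%, 18.8% and 12.4% of loci on those control arrays and in 28.3%, 52.5%, 36.4% and 10.1% on those knockout arrays. On control arrays 1 and 4 and knockout array 4 these shares were close to those of the negative controls. The flag on a single array is therefore not read as expression. The 284 and 482 loci are likewise not read as loci without and with expression of the other strand. The share with no other-strand detection was 34% where the plus strand was the detected one (119 loci) and 39.7% where the minus strand was (165 loci).

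How often the other strand was seen varied with the array. It was well above background at 68, 112, 144 and 95 loci on control arrays 1 to 4, and at 217, 402, 279 and 77 loci on knockout arrays 1 to 4. Knockout arrays 1, 2 and 3 were above every control array and knockout array 4 was not, and those 3 arrays also had the lowest detection limits. With the highest limit of the 8 arrays, -2.24, applied to all of them, the numbers were 68, 64, 66 and 81 on the control arrays and 82, 73, 61 and 73 on the knockout arrays. Under this single limit the groups overlapped. The other strand was above background on more knockout than control arrays at 384 loci, on more control than knockout arrays at 54 and on equally many at 328, again by the limit of each array.

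**Figure D1:**
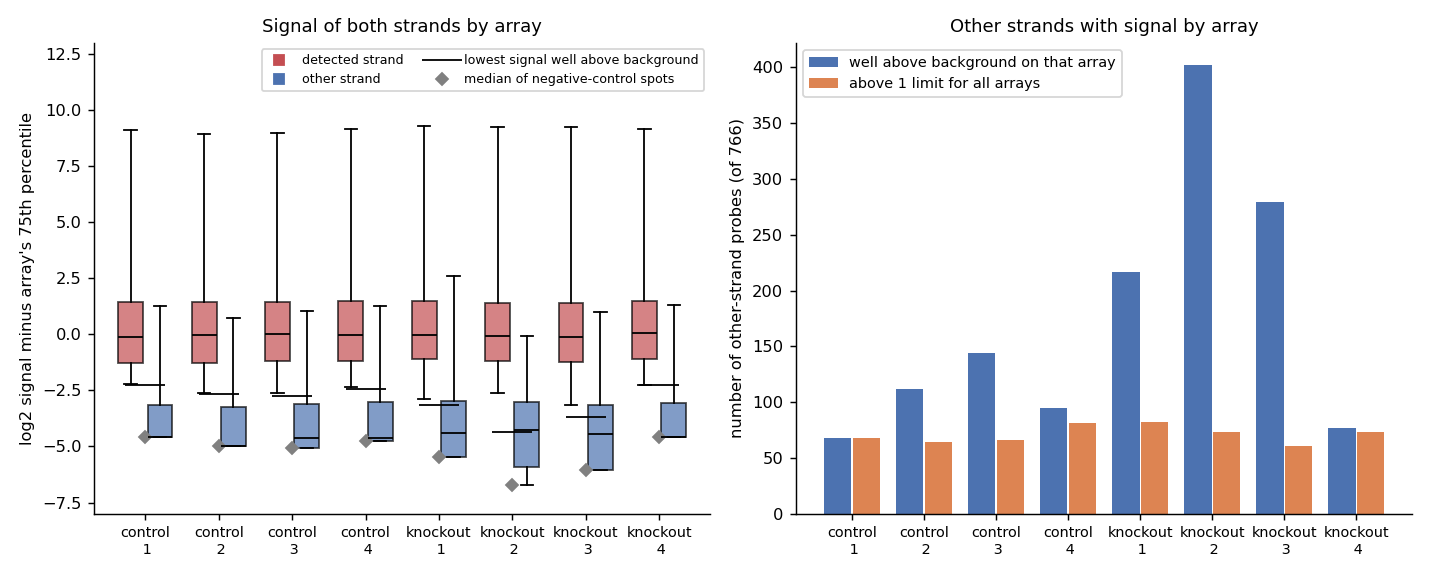
Left, signal of the detected and the other strand of 766 loci on each of the 8 arrays (log2 signal minus the array's 75th percentile; boxes span the quartiles, lines inside are medians, whiskers span the full range), with the detection limit of each array and the median of its negative-control spots. Right, number of other-strand probes well above background on each array, from 68 to 402, and above a single limit of -2.24, from 61 to 82.

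Detected strands had a median signal of -0.07, with quartiles at -1.19 and 1.40 and a range from -2.40 to 9.13 (means over 8 arrays). By array their median lay between -0.11 and 0.07, so arrays differed little in this respect. Signals of different probes are not comparable as RNA amounts, so brightness is given as a property of the probes. The brightest detected strand was exon 11837-, with signals of 9.09, 8.91, 8.99 and 9.16 in controls and 9.30, 9.22, 9.25 and 9.14 in knockout hearts. Exon 11400+ followed, at 8.72, 8.70, 8.61 and 8.62 in controls and 8.70, 8.75, 8.48 and 8.64 in knockout hearts. The groups overlapped at both exons, and at exon 12032-, the steadiest of all detected strands, which stayed between 8.34 and 8.44 on all 8 arrays. Exons 11881-, 11149+, 11267+, 10435+ and 11979+ completed the 8 brightest, with mean signals of 7.79, 7.65, 7.35, 7.08 and 6.97. None of these 8 passed the comparison of the groups, and their differences between knockout and control hearts lay between -0.11 and 0.19 on the log2 scale.

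The other strand gave a median signal of -4.37, with quartiles at -4.95 and -3.22. On control array 1 and knockout array 4 its median was that of the 1200 negative-control spots, which are 20 sequences named as negative controls. On control array 1, 57.2% of other-strand probes had no positive and significant signal. On knockout array 2, the array with the lowest limit, this share was 18.9%, and the median of the other strand exceeded the median of the negative controls by 2.44. On knockout arrays 1 and 3 it exceeded it by 1.04 and 1.60, and on control arrays 2 to 4 by 0.01, 0.44 and 0.14. The excess of the other strand over the negative controls was thus largest on the 3 arrays with the lowest limits.

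The difference between the strands of a locus had a median of 4.20 on the log2 scale, an 18.3-fold difference in signal, with quartiles at 3.15 and 5.77 (8.86-fold and 54.4-fold). The rule chose the loci for such a difference, so it is given as a description. It compares 2 probes of different sequence and is no ratio of RNA amounts. By array the median difference was 3.83, 4.21, 4.21 and 3.99 in controls and 4.35, 4.69, 4.68 and 4.13 in knockout hearts. Over all arrays the median difference was 2.65 with signals below the detection limit set to that limit, and 2.13 with another background correction, normexp. Its size thus depends on how the faintest spots are treated.

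The widest separation was at exon 11400, where the detected plus strand exceeded the minus strand by 13.40 on the log2 scale and the minus strand was above background on 1 array. Exons 11837-, 10626-, 12079+ and 12032- had differences of 12.47, 11.58, 11.56 and 10.83. Exon 12079- gave -4.57, -4.97, -5.09 and -4.74 on the control arrays, the medians of their negative controls, and was above background on none of the 8 arrays. Exon 12032+, by contrast, was above background on 5 arrays, although its minus strand was among the brightest. In all, the difference exceeded 10 at 13 loci and exceeded 1 at 740.

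At 711 loci the detected strand was the brighter one on all 8 arrays, and at 694 its lowest value exceeded the highest value of the other strand. At 53 loci the other strand was brighter on 1 or more arrays, and at 4 of these it was brighter on average. These 4 were exons 11473, 10133, 10589 and 10108. At exon 11473 the detected minus strand gave -1.33, -1.43, -1.17 and -1.29 in controls and -1.54, -1.46, -1.56 and -1.58 in knockout hearts, while the plus strand gave -2.47, -0.60, -0.43 and -0.45 in controls and -0.17, -0.88, -0.56 and -0.32 in knockout hearts. The plus strand was thus brighter on 7 arrays and fell below the limit of control array 1 alone, which made this a 1-strand locus by the rule.

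**Figure D2:**
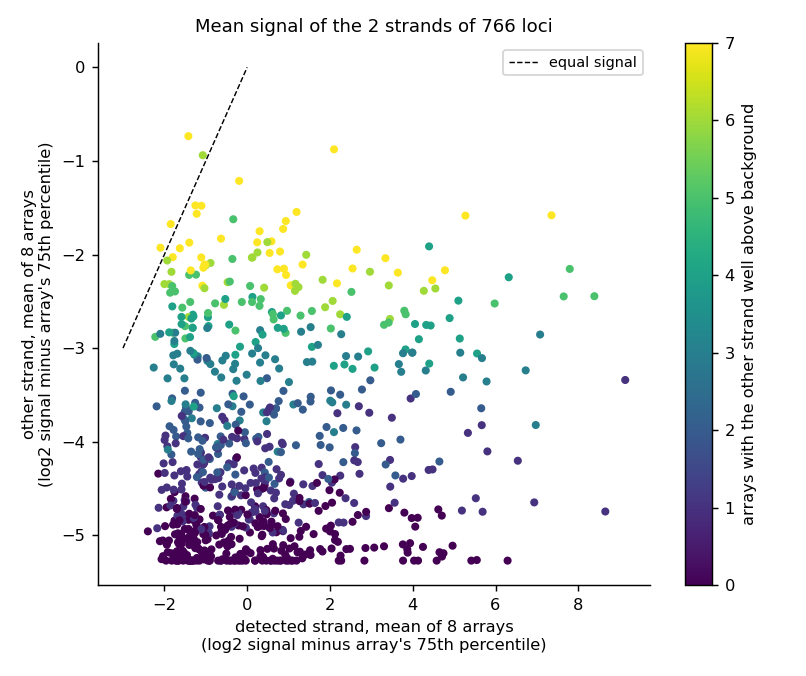
Mean signal of the detected strand (horizontal) and of the other strand (vertical) at 766 loci, each over 8 arrays and as log2 signal minus the array's 75th percentile. Colour gives the number of arrays, from 0 to 7, on which the other strand was well above background, and 4 loci lie above the dashed line of equal signal.

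Near the edge of the rule, the dimmest detected strands were exons 12011-, 11337- and 10799-, with mean signals of -2.40, -2.26 and -2.22. Just outside it were 100 loci with 1 strand above background on 7 arrays and the other on fewer, and the median signal of that strand was -1.88. The brightest of these, exon 10432-, gave -2.86 on control array 1 and between 0.93 and 1.56 on the other 7 arrays. Exon 10563- gave -3.43 on knockout array 1 and between -0.90 and 0.67 elsewhere, and exon 11506+ gave -4.19 on control array 1 and between -0.47 and 0.12 elsewhere. Each of these 3 was kept out by a single array.

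Exon numbers run in series, but the files do not state that neighbouring numbers are neighbours in the genome or exons of 1 transcript. Of 311 pairs of loci with consecutive numbers, 177 (56.9%) were detected on the same strand, against 50.3% of all possible pairs of the 766 loci. The longest run of consecutive numbers was exons 10254 to 10267, with 14 loci, 11 on the plus and 3 on the minus strand. Exons 11765 to 11773 had 4 on the plus and 5 on the minus strand, and exons 10485 to 10492 had 2 and 6. Exons 11754 to 11759, 6 loci, formed the longest run on a single strand, the minus strand. Runs thus often held both strands, and 84 of 181 runs of 2 or more loci kept to 1 strand.

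The comparison of knockout with control hearts asked whether deletion of Klf5 in cardiomyocytes changed these RNAs. No detected strand of the 766 passed an adjusted p of 0.05 in limma, which compares the groups with variances shared over all probes fitted, and the lowest adjusted p was 0.13. Over all 27878 probes fitted 0.14% were called, and over the 24366 probes above background on all 8 arrays 0.0492% were, so 0 of 766 was near the share over all probes. At an unadjusted p under 0.05, 31 detected strands had higher and 37 had lower values in knockout hearts. The higher ones were 4.05% of the 766, against 5.37% of all probes fitted and 3.53% of those above background on all 8 arrays. The lower ones were 4.83%, against 2.69% and 2.58%.

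Groups did not overlap at 32 higher detected strands, where 4.09% of all probes fitted and 2.68% of those above background on all arrays had this pattern (4.18% of the 766). They did not overlap at 26 lower ones, 3.39% of the 766, where 1.66% and 1.7% had it. The median difference was 0.03 on the log2 scale, against 0.005 over all probes fitted and -0.007 over those above background on all arrays. The share of higher among detected strands under an unadjusted p of 0.05 was 45.6%. Median centring gave 25.4% (18 higher and 53 lower), and a percentile over only the probes above background on every one of the arrays gave 67.9% (57 and 27), so the balance of the directions depended on the scaling.

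The counts are also given by strand, a split made after the values were seen and not tested. Among the 350 loci detected on the plus strand, 21 had higher and 9 had lower values with an unadjusted p under 0.05, and among the 416 detected on the minus strand, 10 had higher and 28 had lower values. The shares were 6% and 2.57% for the plus strand and 2.4% and 6.73% for the minus strand. They were 5.37% and 2.69% over all probes fitted, and 3.53% and 2.58% over those above background on all 8 arrays. The median difference was 0.07 for the plus strand and 0.0001 for the minus strand. With the restricted percentile the counts were 36 and 6 for the plus strand and 21 and 21 for the minus strand, and with median centring they were 12 and 12, and 6 and 41. The share of higher among these probes was larger on the plus than on the minus strand under each of these 3 scalings. The same unadjusted threshold was applied to the 123 exons with both strands detected. Of their plus probes 8 (6.5%) were higher and 3 (2.44%) lower, and of their minus probes 2 (1.63%) were higher and 7 (5.69%) lower. These counts are small, were not tested and come from the same 8 arrays, so they are no independent check of the split. At other lincRNA probes with a strand in their names, higher values outnumbered lower ones on both strands. Of 172 such plus probes above background on all 8 arrays 13 (7.56%) were higher and 1 (0.581%) lower. Of 146 minus probes 9 (6.16%) were higher and 2 (1.37%) lower, so the excess of lower minus strands was not seen there.

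Single arrays stood apart at some detected strands, and their part in the counts by strand was not tested beyond leaving them out. At 56 detected strands (7.31%) the 8 values fell into 2 sets parted by more than 1 on the log2 scale. This share was 4.80% over all probes above background on all 8 arrays. At 28 of the 56 control array 1 stood alone. It was the low one at 17 plus and 2 minus strands and the high one at 2 plus and 7 minus strands. No other array stood alone at more than 6. Over all probes above background on all arrays, control array 1 was alone in 37.7% of 1168 such cases, against 50% here. Without control replicate 1 the plus strand still had 21 higher and 6 lower, and the minus strand 12 and 26. Without knockout replicate 4 the plus strand had 13 higher and 7 lower, and without control replicate 3 it had 18 and 2. The median deviation of plus strands from their own means, less that of minus strands, was -0.05, 0.01, -0.04 and -0.02 on control arrays and 0.02, 0.05, 0.02 and 0.11 on knockout arrays, and was thus farthest from 0 on knockout array 4.

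**Figure D3:**
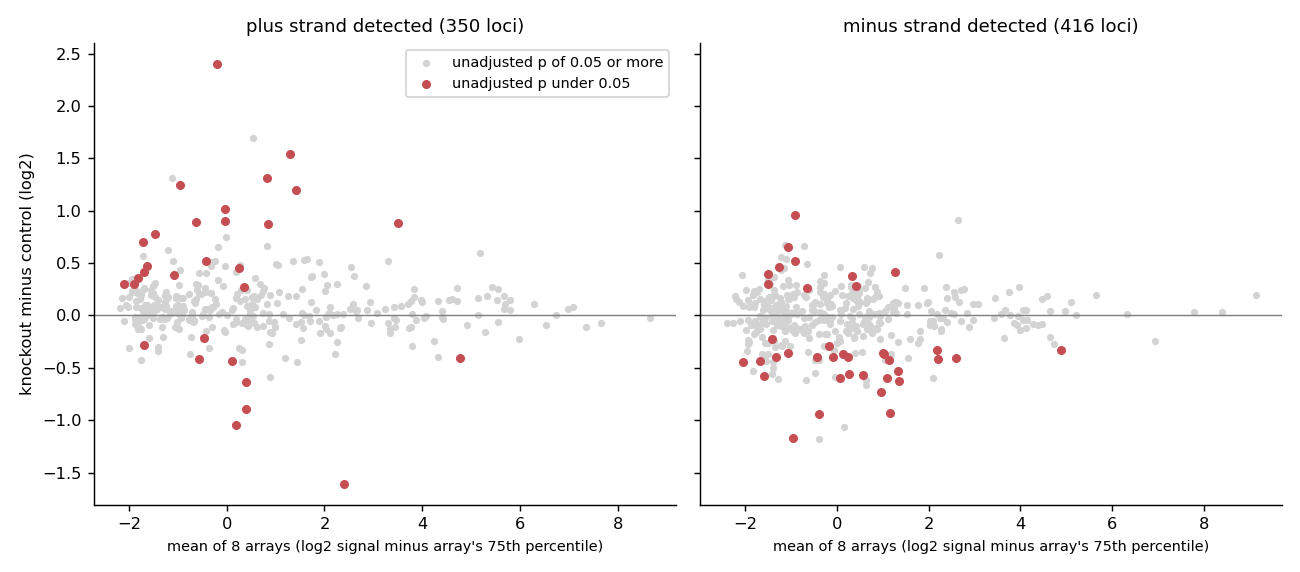
Difference between knockout and control hearts (log2, vertical) against the mean signal over 8 arrays (log2 signal minus the array's 75th percentile, horizontal) for the detected strands of 350 plus-strand loci (left) and 416 minus-strand loci (right). Red points have an unadjusted limma p under 0.05, 21 higher and 9 lower on the left and 10 higher and 28 lower on the right, and none passed an adjusted p of 0.05.

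Among detected strands with higher values in knockout hearts and groups that did not overlap, exon 12091+ had the smallest p. It gave 0.20, 0.99, 0.74 and 1.32 in controls and 1.88, 1.89, 1.98 and 2.29 in knockout hearts. Its difference was 1.20 with an SE of 0.23 (2.29-fold), with a limma adjusted p of 0.177. Exon 12029-, the only minus strand among the 8 higher exons, gave -1.71, -1.24, -1.51 and -1.07 in controls and -0.50, -0.02, -0.71 and -0.46 in knockout hearts, a difference of 0.96. Exon 11437+ lay near the detection limit, at -2.17 to -1.98 in controls and -1.66 to -1.07 in knockout hearts, and its difference of 0.70 was 0.33 with normexp background correction. Exon 10603+ lay between -2.21 and -1.60 in controls and between -1.50 and -0.68 in knockout hearts, a difference of 0.78, or 0.44 with normexp.

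At exons 12004+ and 10254+ a single array decided whether the exon was called. In each case it was the array nearest to the other group, so leaving it out widened the difference. Exon 12004+ gave 0.45, 0.53, 0.42 and 0.74 in controls and 0.93, 2.43, 2.34 and 2.58 in knockout hearts, with knockout array 1 close to the controls. Its difference was 1.54 with an adjusted p of 0.266 in limma, and it was called without knockout replicate 1 (1.92, limma adjusted p of 0.002). Exon 10254+, the first of the longest run, gave 2.74, 2.93, 3.81 and 2.74 in controls and 3.88, 3.87, 3.87 and 4.13 in knockout hearts. The third control lay just under the knockout hearts, and the difference was 0.88 with all arrays and 1.14 without control replicate 3 (limma adjusted p of 0.402 and 0.0145). Exon 10149+ gave -0.14, -0.71, 0.52 and 0.98 in controls and 1.09, 1.21, 1.82 and 1.78 in knockout hearts, a difference of 1.31 whose SE was 0.37. No omission of an array led to a call of exon 10149+. Over all omissions of a single array, 0 to 2 detected strands were called.

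All 8 of the lower exons taken by the same rule were minus strands. Exon 11462- gave 1.63, 1.48, 1.86 and 1.51 in controls and 0.51, 1.07, 0.76 and 0.41 in knockout hearts, a difference of -0.93 with an SE of 0.16. Its limma adjusted p, 0.13, was the lowest of the 766, and it lay between 0.0909 and 0.263 in the alternatives that kept all arrays. The exon numbered 2 below it, 11460-, gave -0.71, -0.44, 0.24 and -0.52 in controls and -1.80, -1.23, -1.08 and -2.02 in knockout hearts, a difference of -1.17. Between them, exon 11461+ had a difference of 0.30, so these 3 consecutive numbers held both strands and both signs.

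Exons 10485- and 10487- came from a single run of 5 minus-strand loci, 10485 to 10489, all 5 of which had lower values in knockout hearts. The run is described because it holds these exons. Over all 416 minus strands detected, 50.2% had a difference above 0. In the longer run of both strands, 10485 to 10492, differences reached 0.38. The longest minus-strand run, 11754 to 11759, ranged from -0.61 to 0.32. Exon 10487- gave 1.46, 1.54, 1.23 and 1.35 in controls and 0.79, 1.11, 0.66 and 0.62 in knockout hearts, a difference of -0.60. Exon 10485- gave 1.70, 1.86, 1.36 and 1.51 in controls and 1.13, 1.16, 1.06 and 0.97 in knockout hearts, a difference of -0.53. The differences of exons 10486-, 10488- and 10489- were -0.22, -0.14 and -0.14. No locus of the run passed, with limma adjusted p of 0.256 and 0.284 at exons 10487- and 10485-.

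The remaining lower exons were 11479-, 11541-, 11772- and 11866-. Exon 11479- lay between 0.97 and 1.65 in controls and between 0.36 and 0.71 in knockout hearts (-0.73), and exon 11541- between -0.32 and 0.64 and between -1.15 and -0.67 (-0.94). The groups lay closest together at exon 11772-, with -1.53 to -1.06 in controls and -2.01 to -1.55 in knockout hearts (-0.58). Exon 11866- had the smallest spread of these, 2.30, 2.46, 2.48 and 2.45 in controls and 2.09, 2.19, 1.89 and 1.84 in knockout hearts, a difference of -0.42 with a limma adjusted p of 0.35.

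**Figure D4:**
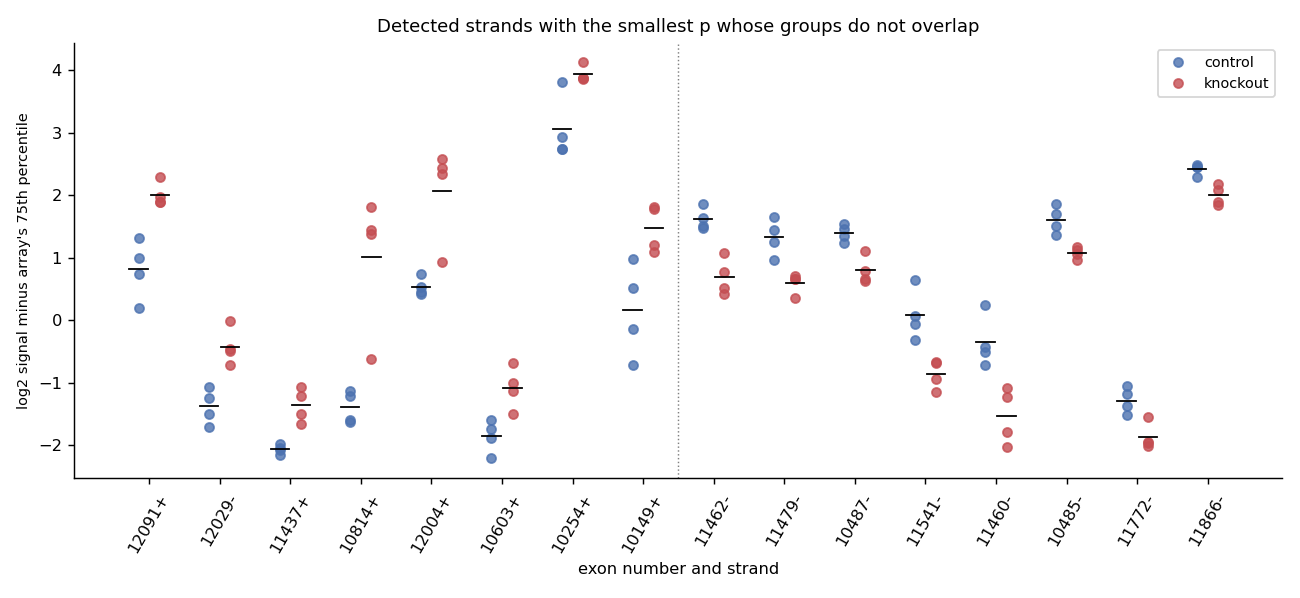
Signal of the 16 detected strands with the smallest p among those whose groups do not overlap, 8 higher (left of the dotted line) and 8 lower in knockout hearts (log2 signal minus the array's 75th percentile). Each point is 1 heart and bars are means of 4. Knockout array 4 at exon 10814+ and knockout array 1 at exon 12004+ lie apart from the other knockout hearts, and none of the 16 passed an adjusted p of 0.05.

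The other strand entered the comparison at 63 loci, where it was above background on all usable arrays of a group, 46 of them through the knockout and 17 through the control arrays. Such a filter favours the direction of the group that passed, so counts over these probes support nothing. None of the 63 passed in limma, where 6 had higher and 2 had lower values with an unadjusted p under 0.05. At 3 of them the other strand was above background on all 4 knockout and no control arrays, and at none the reverse. These were exons 10114-, 11165+ and 10596+. With control signals below the detection limit raised to it, their differences were 1.11-, 1.11- and 1.19-fold. The flag follows the limit of each array, which was lowest on knockout arrays 1, 2 and 3, so the pattern is not read as absence in controls. 

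Both strands are given for 4 loci chosen after their values were seen, because the difference between their strands was not alike in the 2 groups. Exon 10814 is detected on the plus strand by the rule, and its minus strand was above background on 7 arrays. Its plus strand gave -1.59, -1.22, -1.63 and -1.14 in controls and 1.45, 1.81, 1.38 and -0.62 in knockout hearts. Its minus strand gave -0.83, -0.87, 0.22 and -1.17 in controls and -2.27, -1.23, -0.84 and -2.70 in knockout hearts. The plus strand was thus dimmer than the minus strand on control arrays 1 to 3 and brighter on all knockout arrays, and the mean difference of plus over minus strand was -0.73 in controls and 2.77 in knockout hearts. The plus strand's difference of 2.40 (SE 0.49, 5.29-fold) was the largest of all detected strands and had a limma adjusted p of 0.199. Without knockout replicate 4 it was 2.94 and was called (limma adjusted p of 0.00215). The minus strand's difference was -1.10, with knockout array 4 below background. That strand entered the fit only through the control arrays, where it was higher, so no test is given for it.

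Exon 11047 was detected on the minus strand, which gave 3.10, 2.25, 2.42 and 1.82 in controls and 1.73, 2.11, 1.95 and 1.42 in knockout hearts, with groups that overlapped. Its plus strand gave -3.02, -1.88, -1.48 and -1.31 in controls and 0.15, -0.18, 0.14 and 0.56 in knockout hearts, with groups that did not overlap and a single value, that of control array 1, below background. The plus strand's difference was 2.09. It entered the fit only through the knockout arrays, where it was high, so no test is given for it. The mean difference between the strands was 4.32 in controls and 1.63 in knockout hearts.

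Exon 10003 had a plus strand between -1.33 and -1.14 on all 8 arrays. Its minus strand gave -1.09, -0.79, -1.05 and -1.32 in controls and -2.0, -1.61, -1.86 and -2.78 in knockout hearts. It was brighter than the plus strand on control arrays 1 to 3 and dimmer on all 4 knockout arrays. At exon 11146 the minus strand gave -3.14, -2.06, -2.49 and -2.13 in controls and -1.31, -1.60, -1.65 and -1.48 in knockout hearts. Its plus strand gave -1.97, 1.15, 1.20 and -1.60 in controls and 1.32, 1.41, 1.37 and 1.47 in knockout hearts, with control arrays 1 and 4 far below the other 6.

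**Figure D5:**
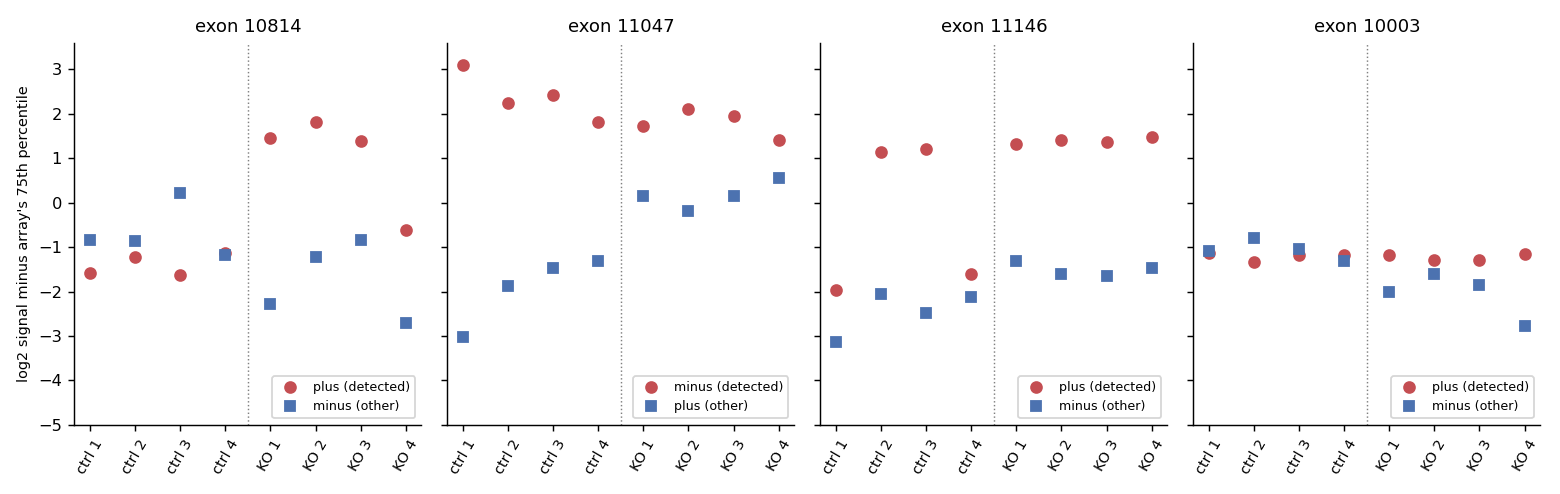
Signal of both strands at exons 10814, 11047, 11146 and 10003 on each of the 8 arrays (log2 signal minus the array's 75th percentile; ctrl, control; KO, knockout), with the detected strand as circles and the other as squares. At exon 10814 the plus strand lies below the minus strand on control arrays 1 to 3 and above it on the 4 knockout arrays, and at exon 11047 the plus strand is higher on every knockout array than on any control array.

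The only lincRNA exon probe called over all probes, exon 10829+, is not among the 766, because exon 10829- was also above background on all 8 arrays. Exon 10829- had a difference of -0.28 with groups that overlapped (limma adjusted p of 0.79).

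Spread between hearts of a genotype was small for most detected strands. The SD within genotype had a median of 0.207, against 0.204 over all probes above background on all arrays and 0.635 for the other strands. Many other-strand values lay well below the limit, at a lowest value shared by the probes of an array. Exons 10041+ and 10042+, for example, gave identical values on every array, each with an SD of 0.656. The SD of the other strands thus includes differences in that lowest value between arrays and does not measure spread between hearts alone. Among the 5 largest spreads, a single heart stood apart at exons 11046- and 11756-. Exon 11046- was 2.04 on knockout array 3 and between -2.12 and -1.12 on the other 7 arrays, and exon 11756- was 1.67 on control array 1 and between -2.26 and -1.40 elsewhere. Exon 11086+ gave 0.79 and 0.56 on knockout arrays 2 and 3 and lay between -2.29 and -1.0 elsewhere. Exon 12097- ranged from -2.14 to 0.72 with both genotypes overlapping, and exon 11146+ was low on control arrays 1 and 4, as given above.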

How the data were processed

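The spot intensity used is the deposited output of Agilent Feature Extraction 11.0.1.1, background-corrected and not scaled between arrays, per the file headers and the submitters' processing notes. RNA was depleted of ribosomal RNA and copied into Cy3-labelled cRNA by random priming, per the labels' protocols. The design build is mm9, per the file headers. The authors' deposited log2 value table holds 21341 probes and 0 lincRNA exon probes, so it gave no alternative.

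Intensities were put on the log2 scale, less each array's 75th percentile over 59709 probes. Outlier spots (1 of the detected and 3 of the other strands) and probes named as negative controls were left out. A probe was fitted if it had at least 3 usable arrays per group and, in 1 group or both, was above background on all of these, 27878 in all, with limma 3.58.1 in R 4.3.3 and Benjamini-Hochberg adjustment over all of them. Differences are knockout minus control. The fit was tested on simulated data. Members and lists were chosen with earlier results of these data known. Exons named follow a rule: the 8 smallest p per direction without overlap, the 8 brightest, the widest (5) and narrowest (3) strand differences, the 3 on each side of the rule's edge, the 5 other strands on most arrays, the 5 largest SDs and the longest runs. Other exons were named after their values were seen. Alternatives were normexp (offset 50, with median spot signals because mean signals were not at hand), other scalings, filters, variance models, detection rules, a replicate block and the omission of each array. The headers give all arrays the same scan time, so it formed no batch. The first element of each array's position code is never the same in both groups, so position and genotype cannot be told apart.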

Additional observations from a re-analysis of the deposited data

Results flagged for a closer look

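Among the exons named, 1 array stood far from the other 3 of its group in 10 of 90 groups of 4, where chance gives about 4.5. Control array 1 was the one apart in 4 of them. It gave -2.86 at exon 10432- against 0.99 to 1.38 in the other controls, -4.19 at exon 11506+ against -0.47 to -0.14, -2.47 at exon 11473+ against -0.60 to -0.43, and 2.30 at exon 11866- against 2.45 to 2.48. The first 2 of these exons were chosen because 1 array fell below background, and exon 11473+ because it was detected on 7 arrays, so such a value was to be found there.

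Knockout array 1 gave 0.93 at exon 12004+ against 2.34 to 2.58 in the other knockout hearts, and -0.82 at exon 11186- against -1.27 to -1.21. Knockout array 2 gave 0.36 at exon 11479- against 0.66 to 0.71 and -1.55 at exon 11772- against -2.01 to -1.95. Knockout array 3 gave 2.04 at exon 11046- against -1.77 to -1.67, an exon chosen for its spread. Knockout array 4 gave 4.13 at exon 10254+ against 3.87 to 3.88.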

How the results depend on the processing

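The number of 1-strand loci was 826 with a strand taken as detected on at least 7 arrays, 863 with the positive and significant flag (553 of them among the 766) and 745 with a single limit for all arrays (728 among the 766), an alternative chosen after the data were seen, and it was 284 when the other strand had to be above background on 0 arrays. The strand difference, 4.20, was 4.70 at those 284 loci, 2.13 with normexp and 2.65 with faint signals set to the detection limit, and lay between 4.12 and 4.27 when 1 array was left out. Detected strands called numbered 0 in all alternatives that kept all arrays, and 0 to 2 over the omissions (exon 10254+ without control replicate 3, exons 12004+ and 10532+ without knockout replicate 1, exon 10814+ without knockout replicate 4). Other strands called numbered 0 to 1 over the omissions (exon 11047+ without control replicate 1 and exon 10079- without knockout replicate 4). They numbered 1 with faint signals set to the limit (exon 11047+). Exon 10079-, and exon 11047+ with all arrays, passed the filter only through the knockout arrays, where they were high, so those calls support nothing. Without control replicate 1, exon 11047+ was above background on the remaining arrays of both groups. That call did not rest on 1 group, but it came from omitting a single array and was not made in the main fit. Detected strands higher at an unadjusted p under 0.05 were 18 with median centring and 57 with the percentile over only the probes above background on every one of the arrays, and ran from 21 to 39 over the omissions; lower ones ran from 28 to 42. None of the 16 exons named for genotype changed sign in 304 values under the alternatives, and 3 of these values passed the threshold. The 16 were chosen for groups that do not overlap, so leaving out an array could not change their sign. Other signal filters, the trended and robust variances and the replicate block left the difference itself unchanged. Array weights changed its size (exon 10814+ from 2.40 to 2.65, exon 12091+ from 1.20 to 1.08), but cannot change its sign where groups do not overlap. The constant sign therefore supports nothing. With a replicate block 0 detected strands were called, and 35 had higher and 45 had lower values with an unadjusted p under 0.05. The authors' value table held no lincRNA exon probe, so that alternative was not run. Same-numbered arrays did not deviate together throughout (correlations of 0.06, -0.05, 0.36 and 0.24). The closest knockout array had the same number for controls 1, 3 and 4, and was knockout array 1 for control 2. Whether same-numbered arrays share more than a number was not tested. Much of the other strand's signal lay under the detection limit, where values have no reliable order.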

Other observations

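At 12 detected strands the 8 values fell into 2 sets of at least 2 arrays parted by more than 1 on the log2 scale, and at none of them did the sets match the genotypes. At 4 of these, control arrays 1 and 4 were low together. Exon 11146+ was -1.97 and -1.60 on those arrays and 1.15 to 1.47 on the other 6, exon 11572+ was -1.45 and -1.21 against 0.10 to 0.66, exon 11746+ lay between -0.35 and -0.24 against 1.03 to 1.37, and exon 10205- between 1.05 and 1.59 against 2.65 to 3.54. The other strand of exon 10108 had the same pattern, with -2.91 and -2.82 on control arrays 1 and 4 and -0.58 to -0.04 elsewhere. At 4 others the high arrays were all knockout arrays. These were knockout arrays 1, 2 and 3 at exon 10814+, arrays 2, 3 and 4 at exons 12004+ and 10532+, and arrays 2 and 3 at exon 11086+. At exon 10532+ the high values lay between -0.17 and 0.41 and the other 5 between -1.91 and -1.24. At exons 11066- and 10399+ each set held both genotypes. Exon 12015- was -2.26 to -2.08 on knockout arrays 1 and 2 and 0.10 to 0.31 elsewhere, and exon 11316+ was 0.38 and 0.81 on knockout arrays 2 and 4 and 2.52 to 3.43 elsewhere.

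Other lincRNA probes with a strand in their names, those for human-locus and mouse-locus transcripts, are given beside all probes above background on all 8 arrays, of which 3.53% had higher and 2.58% had lower values at an unadjusted p under 0.05. Of 172 plus probes above background on all 8 arrays, 13 (7.56%) had higher and 1 (0.581%) had lower values in knockout hearts by the same limma fit, and of 146 minus probes 9 (6.16%) had higher and 2 (1.37%) had lower values. Over all probes fitted the shares were 5.37% and 2.69%.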
